A study of Mus musculus with 3 samples.

Results

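The genes described here are the potassium channel genes of the brain, taken as every row of the matrix whose symbol starts with Kcn. The matrix held 99 such rows of 31053 genes, and 4 of them (Kcnj8, Kcnj10, Kcnj13 and Kcnk1) were left out by the rule. The remaining 95 were 40 voltage-gated channels, 13 two-pore channels, 12 inward rectifiers, 8 calcium- or sodium-activated and Slo channels, 16 auxiliary subunits, 5 noncoding RNAs and 1 channel regulator. The rule used names only, but it was set with earlier results of these data known.

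The cells came from dissociated brain tissue of mice at 10 weeks of age, labelled C56BL6 (C57BL/6 in the study's methods), in 3 conditions, which were control, Ischemic Stroke (IS) and Hemorrhagic Stroke (HS). Ischemic stroke was made by a suture that blocked the middle cerebral artery and was then withdrawn, and hemorrhagic stroke by collagenase injected into the striatum. Each condition was 1 droplet library that pooled several mice, and the time from stroke to dissociation is a detail not given in the sources used here. All 3 libraries stand in 1 table of unique molecular identifier (UMI) counts, each UMI being 1 captured RNA molecule, and a number from 1 to 3 after each cell barcode tells them apart. The labels and files do not pair these numbers with the conditions, and no pairing was inferred from the cells. Each level below is pooled over the 3 libraries and followed, where it matters, by the level in every numbered library, and the conditions were not compared.

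Potassium channels let potassium leave or enter the cell along its gradient. They draw the resting potential of glia and immune cells toward that of potassium. They also shape the action potential of neurons, and relax or constrict vessels through smooth muscle. Voltage-gated channels open on depolarisation, two-pore channels leak at rest, inward rectifiers pass current best near rest, and calcium- or sodium-activated channels follow the ions inside the cell. Auxiliary subunits form no pore but set the gating and the surface level of the channels they bind.

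The 3 libraries held 69270514 to 105957232 UMIs and a median of 5326.5 to 5733 UMIs per barcode. Of 35968 barcodes, 31982 had at least 1000 UMIs and at most 30% mitochondrial UMIs. A cell was put into a class by the raw UMIs of that class's markers, and 26196 cells, 81.9% of those that passed, fell into 15 classes of at least 50 cells, of which 13 were neither neurons nor neuroblasts. Marker genes that the gate did not use were listed for 30 pairs of gene and class, and in 26 the gene was highest in the class it was listed for. In 3 of the other 4 pairs the gene was listed for a second, related class, which held more of it, and Stmn2 was at 1326 CPM in neurons and 1536 CPM in neuroblasts. Mbp was at 4081 CPM in mature oligodendrocytes, with 1645 CPM in newly formed ones. S100a8 was found in 99.2% of neutrophils, Slc1a3 in 97.2% of astrocytes and Mylk in 98.9% of smooth muscle cells. The libraries did not share the classes evenly. Library 3 held 1021 of 1042 endothelial cells, 177 of 182 pericytes and 133 of 155 border macrophages, and library 1 held 178 of 239 neutrophils. RNA of oligodendrocytes was also spread more widely in library 3, where microglia held a mean of 5.03 UMIs of the 8 oligodendrocyte markers, against 1.17 and 1.12 in libraries 1 and 2. There were 110 barcode sequences found in more than 1 library, and leaving out the 162 classed cells that carried them changed neither of the counts of genes given below.

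The part of the protein that all pore-forming members share is the selectivity filter, the short loop that strips water from potassium and lets it through. Its signature was searched in the coding sequences, read in frame on the coding strand, as successive codons for threonine, a residue whose codon has T in the middle, glycine, a residue whose codon starts with T, and glycine. In the GENCODE M21 annotation of GRCm38 (mm10), 61 of the 90 members with a coding sequence held it, 67.8%, against 0.866% of 21584 coding genes. It was in 33 of 40 voltage-gated channels, 11 of 12 inward rectifiers, 12 of 13 two-pore channels and 5 of 8 calcium- or sodium-activated and Slo channels, and in 0 of 16 auxiliary subunits. A filter with another residue at any of these places is missed by the search, so a channel without a match need not lack a filter. Kcnn2, Kcnn3, Kcnh1, Kcnh2 and Kcnh8, named below, were among those without a match. Of the two-pore channels, whose subunits each carry a pair of pore loops, 11 held it 2 times. The windows below are shown for members that led or were held by the named cell class in the results that follow, with the filter codons in capitals and 15 bases of coding sequence on either side, read on the coding strand.
Kcna1, main channel of mature oligodendrocytes: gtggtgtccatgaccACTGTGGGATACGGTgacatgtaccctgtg
Kcna6, mature oligodendrocytes: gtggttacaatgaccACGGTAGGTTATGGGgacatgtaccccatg
Kcna5, smooth muscle cells: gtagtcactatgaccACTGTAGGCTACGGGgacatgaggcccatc
Kcnk13, microglia and mature oligodendrocytes (second pore loop): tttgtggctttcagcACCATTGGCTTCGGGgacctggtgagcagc
Kcnk12, leading neurons and held by microglia (second pore loop): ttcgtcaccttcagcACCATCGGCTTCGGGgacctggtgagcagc
Kcnn4, T cells: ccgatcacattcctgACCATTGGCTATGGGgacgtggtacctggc
Kcnj2, neutrophils: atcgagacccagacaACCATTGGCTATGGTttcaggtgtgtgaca
Kcnj16, astrocytes and oligodendrocyte precursors: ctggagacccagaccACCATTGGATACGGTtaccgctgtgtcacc
Kcnt1, astrocytes: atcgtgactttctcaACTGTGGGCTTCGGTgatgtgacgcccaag
They lie in coding exons, at chr6:126642213-126642257 in exon 2 of Kcna1 on the minus strand, chr6:126738632-126738676 in exon 1 of Kcna6 on the minus strand, and chr6:126533730-126533774 in exon 1 of Kcna5 on the minus strand. Those of the two-pore channels are at chr12:100061361-100061405 in exon 3 of Kcnk13 on the plus strand and chr17:87746438-87746482 in exon 2 of Kcnk12 on the minus strand. The others are at chr7:24379183-24379227 in exon 4 of Kcnn4, chr11:111072192-111072236 in exon 2 of Kcnj2, chr11:111024889-111024933 in exon 2 of Kcnj16 and chr2:25894352-25894396 in exon 11 of Kcnt1, all on the plus strand. Kcna5, Kcna1 and Kcna6 stand in a row on chromosome 6 between 126532551 and 126740674. Kcna1 and Kcna6 both led mature oligodendrocytes, and Kcna5 led smooth muscle cells. Kcnj16 (110968033 to 111027968), which led astrocytes and precursors, is next to Kcnj2 (111066164 to 111076821), which led neutrophils, on chromosome 11.

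Potassium channel RNA was scarce. The 95 genes gave 77766 UMIs in the classes, 0.0369% of all UMIs there, and a median of 117 UMIs per gene. Kcna1 gave 17731 of them, the noncoding Kcnq1ot1 13414, Kcnk13 8618, Kcnq3 5851 and Kcna6 4895. Kcna10 and Kcnk16 had 0 UMIs. Levels are given as CPM, the UMIs of a gene per 1000000 UMIs summed over the cells of a class, with an exact Poisson 95% interval that covers counting error only. These are 3′ tags counted as molecules, so a level does not grow with transcript length.

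Channels and subunits were summed without the noncoding RNAs, the regulator and the 4 genes left out by the rule (Kcnj8, Kcnj10, Kcnj13 and Kcnk1). These sums are therefore not the total channel RNA of a class, and they differed widely between classes. Oligodendrocyte precursors stood highest, with 1334 CPM (1287 to 1382), followed by neurons with 783 CPM (736 to 832). Astrocytes (665 CPM, 623 to 708) and smooth muscle cells (658 CPM, 601 to 719.5) came next, and their intervals overlapped. Mature oligodendrocytes held 539 CPM (533 to 544), choroid plexus epithelium 407 CPM (388 to 428) and pericytes 288 CPM (255 to 324). Neuroblasts (353 CPM) and newly formed oligodendrocytes (339 CPM) lay between them with overlapping intervals. Immune cells, microglia among them, were lower. Microglia held 117 CPM (115 to 120), T cells 115 CPM (110 to 121), NK cells 97.1 CPM (82.2 to 114), border macrophages 80.9 CPM (64.3 to 100.4) and neutrophils 66.0 CPM (51.2 to 83.6), and microglia and T cells could not be told apart. Endothelial cells had the lowest pooled value, 63.5 CPM (58.6 to 68.7). Their interval lay inside that of neutrophils and overlapped that of border macrophages, so these classes could not be ranked. Every cell was also thinned to 1000 UMIs so that depth no longer entered, and a channel UMI was then found in 70.6% of oligodendrocyte precursors, 57.4% of astrocytes, 42.2% of mature oligodendrocytes, 13.2% of microglia and 6.33% of endothelial cells. Without thinning the shares were 97.7%, 85.3%, 92.2%, 60.4% and 35.0%.

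**Figure D1:**
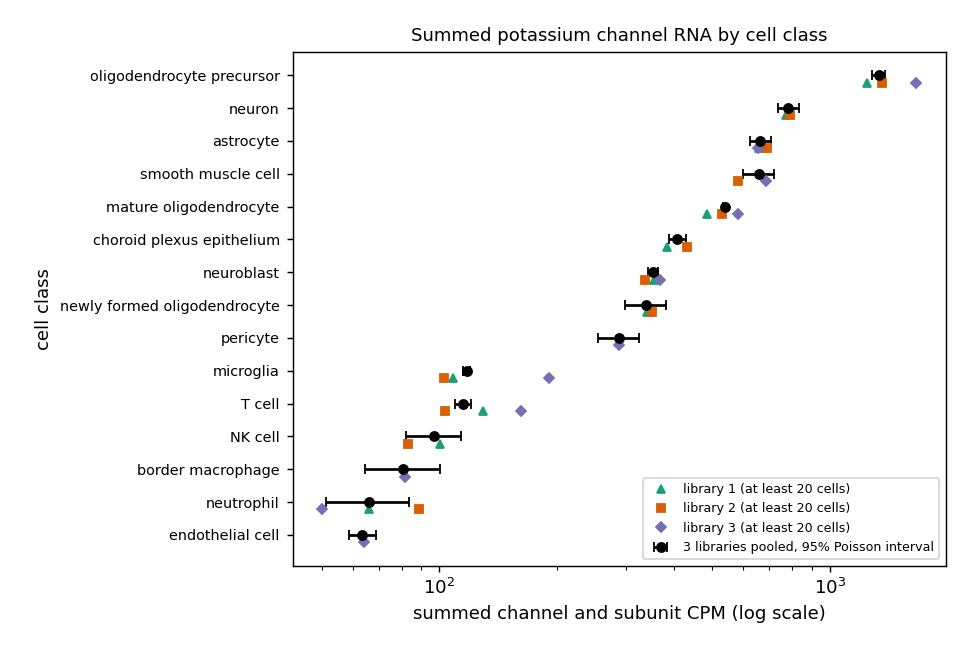
Summed CPM of potassium channels and their subunits (log axis), without the 4 genes left out by the rule, in each of the 15 cell classes. Black points are the 3 libraries pooled with an exact Poisson 95% interval, and coloured points are single libraries with at least 20 cells of the class. Oligodendrocyte precursors stand at 1334 CPM and endothelial cells at 63.5 CPM.

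The families that made up this RNA also differed between classes. Kcnj8, Kcnj10 and Kcnj13, which are inward rectifiers, and Kcnk1, a two-pore channel, were left out by the rule and enter no share. Voltage-gated channels gave 78.7% of the channel UMIs in mature oligodendrocytes, 67.6% in newly formed oligodendrocytes and 9.43% in T cells. Two-pore channels gave 56.1% in microglia and 51.2% in border macrophages, calcium- or sodium-activated channels 46.8% in T cells and 27.8% in astrocytes, and inward rectifiers 45.6% in neutrophils. Auxiliary subunits were 86.1% of the channel UMIs in choroid plexus epithelium, 51.0% in NK cells, 46.7% in pericytes and 39.6% in smooth muscle cells. In choroid plexus epithelium and T cells a few genes made up most of it: the 3 largest gave 92.9% and 75.1% of the channel UMIs. In neurons, neuroblasts and astrocytes the 3 largest gave 33.8% to 36.1%.

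**Figure D2:**
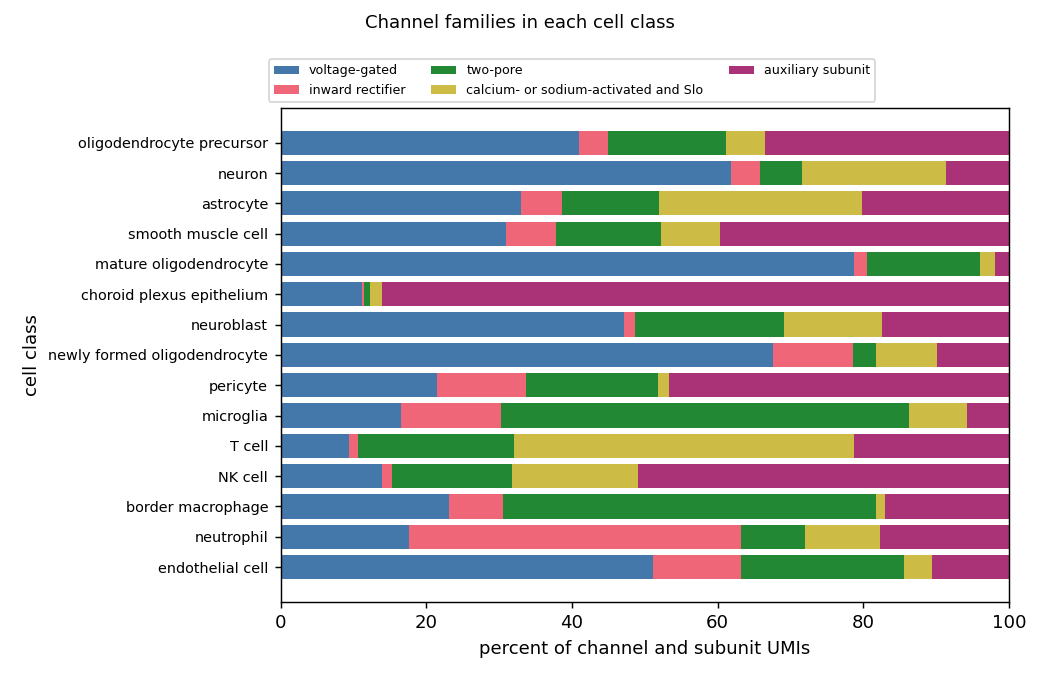
Percent of channel and subunit UMIs (axis from 0 to 100) given by each family in each cell class, with classes ordered by their summed channel CPM. The 4 genes left out by the rule are not counted. Voltage-gated channels fill 78.7% of mature oligodendrocytes, two-pore channels 56.1% of microglia and auxiliary subunits 86.1% of choroid plexus epithelium.

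A member was said to lead a class when at least 5% of its cells held a UMI and its CPM plus 1 was at least 4 times the mean CPM plus 1 of the other classes, each counted once. The rule was applied to genes with at least 50 UMIs in the classes, which were 60 members. The other 35 members held fewer UMIs and were not called. Of the 60, 42 led at least 1 non-neuronal class, 70.0%, beside 31.6% of all 15764 genes with as many UMIs. They did so 53 times. Counting neurons and neuroblasts, 50 members led a class (39.1% of all genes did), 70 times in all. A looser rule asked for 5% of cells, 10 UMIs and 3 times the median class. By that rule 48 members were held by a non-neuronal class (80.0%, beside 49.4% of all genes), and 5 were held only by neurons or neuroblasts. A member in the text below with no such call is given as a value only.

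**Figure D3:**
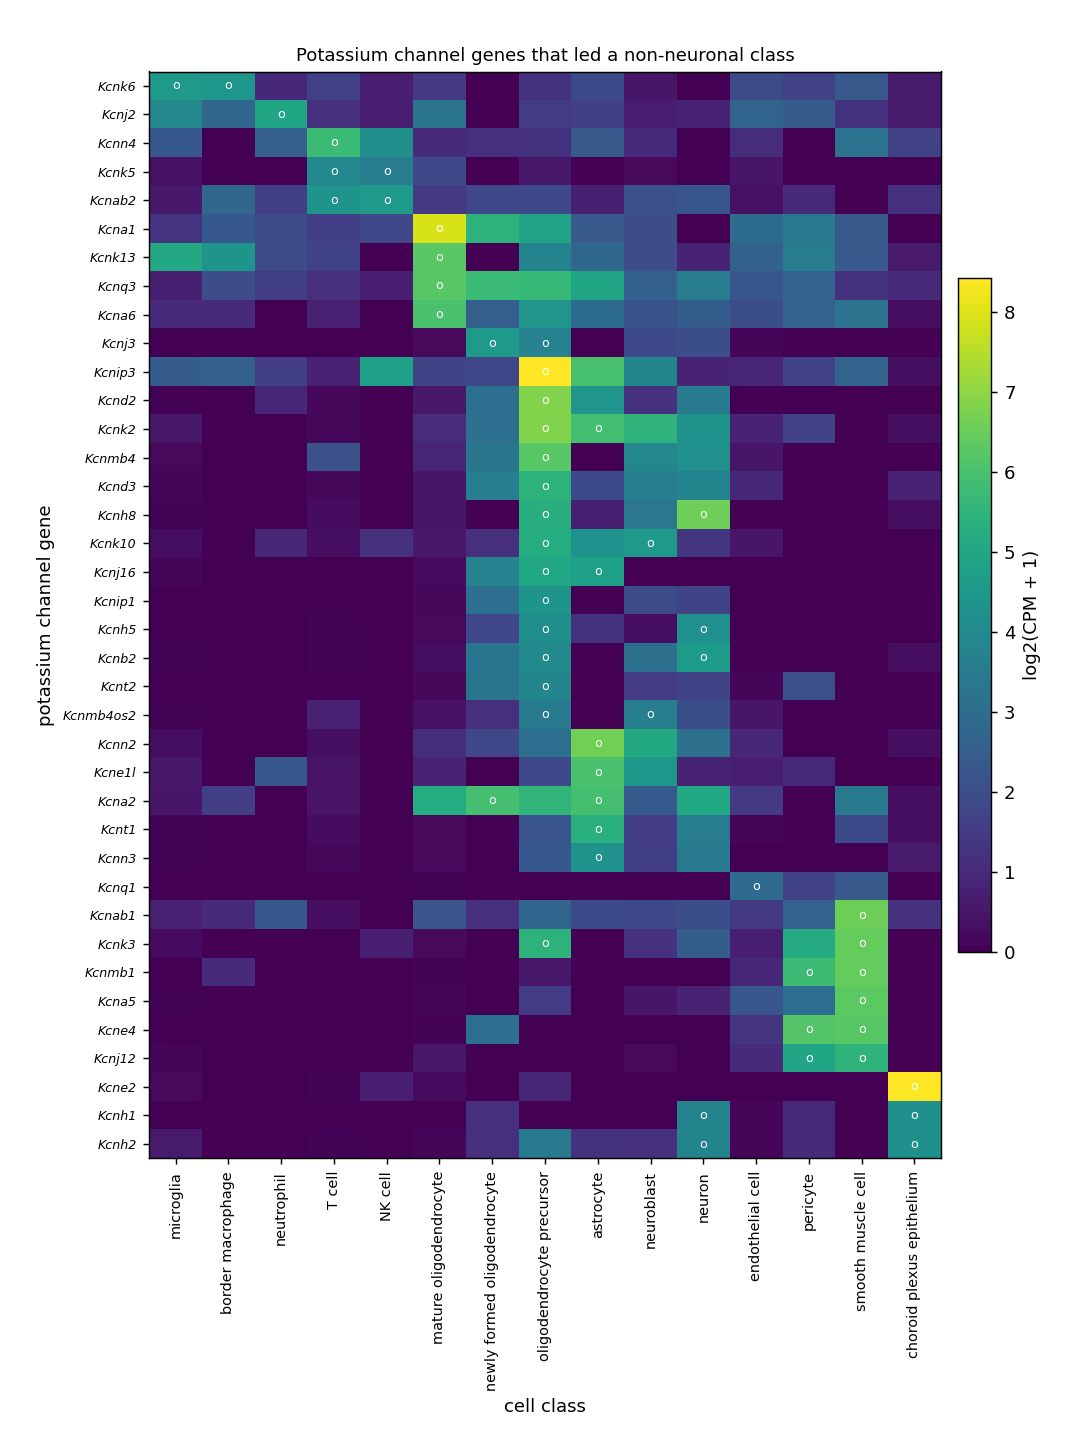
Level of 38 of the 42 potassium channel genes that led a non-neuronal class (rows) in the 15 cell classes (columns), as log2(CPM + 1) in colour, with a white circle where the gene led the class. The oligodendrocyte precursor column holds the most circles, 15, and Kcne2 is bright in choroid plexus epithelium alone.

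Mature oligodendrocytes, the myelinating cells, held Kcna1 above all. Its product, Kv1.1, is a delayed rectifier best known from the axon beside the node of Ranvier. The level was 238 CPM (234 to 241) in 9368 cells, with 221, 237 and 249 CPM in libraries 1, 2 and 3, and 70.2% of the cells held a UMI. The mean of the other classes was 8.05 CPM. As a measure of free RNA, 0.363% and 0.801% of microglia in libraries 1 and 2 held a Kcna1 UMI, and 3.29% in library 3, at a median of 7730 UMIs in microglia and 6706.5 in mature oligodendrocytes. Kcna6 (Kv1.6) was at 63.7 CPM, and at 62.1, 64.5 and 64.0 CPM in the 3 libraries, against a mean of 4.22 CPM elsewhere. Kcnq3, a subunit of the M-current, was at 74.7 CPM, with 74.5, 80.3 and 69.6 CPM by library. It was also at 52.6 and 55.5 CPM in newly formed oligodendrocytes of libraries 1 and 2, and at 30.7 CPM in astrocytes. Oligodendrocyte precursors held it too, in 23.7% of their cells, beside 10.7% of astrocytes. The last of the 4 leading genes was Kcnk13, the leak channel THIK-1, at 76.6 CPM (74.6 to 78.6). It was less even, with 54.6, 69.8 and 97.4 CPM in libraries 1, 2 and 3. Over all genes, 3.39% led this class. Kcna2 (Kv1.2), which can form channels together with Kv1.1, was held at 36.3 CPM without leading, and at 24.5, 25.0 and 54.4 CPM by library.

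Along the lineage the makeup changed. Newly formed oligodendrocytes (68 cells) held Kcna2 at 60.3 CPM (44.6 to 79.8) and Kcna1 at 43.1 CPM (30.02 to 59.9), and Kcna1 was below its level in mature cells by more than the intervals. Kcna2 and Kcnj3, a G-protein-gated inward rectifier at 22.2 CPM (13.1 to 35.0), led this class, as 2.85% of all genes did. Kcna6 stood at 19.9 CPM in precursors, 4.93 CPM in newly formed and 63.7 CPM in mature cells. Kcnk13 stood at 12.8 CPM in precursors and had 0 UMIs in newly formed cells, of 812109 UMIs in all. With so few newly formed cells, these steps rest on 4 and 0 UMIs in the middle class.

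Oligodendrocyte precursors led the largest number of members, 17 of 60, beside 4.65% of all genes. Their first channel gene was Kcnip3, which encodes a calcium-binding partner of Kv4 channels that is also known as a transcriptional repressor (DREAM). It was at 335 CPM (312 to 359.9), with 274, 370 and 528 CPM by library, and in 76.8% of 354 cells. The pore subunits that bind such partners were there as well: Kcnd2 (Kv4.2) was at 114 CPM (100.2 to 128), with 119, 105 and 109 CPM by library, and Kcnd3 (Kv4.3) at 42.4 CPM. Elsewhere their means were 2.86 and 2.88 CPM. The dipeptidyl-peptidase-like subunits of Kv4, counted among the partner genes and not among the members, were led by the same class. Dpp6 was at 175 CPM (158 to 193) and Dpp10 at 40.2 CPM (32.4 to 49.4). Leak channels formed another group. Kcnk2 (TREK-1), opened by stretch and lipids, was at 112 CPM (98.5 to 127), with 114, 105 and 119.6 CPM by library. Kcnk3 (TASK-1) was at 42.9 CPM and Kcnk10 (TREK-2) at 36.3 CPM. Kcnmb4, the beta subunit that modifies the large-conductance BK channel in neurons, was at 75.2 CPM (64.3 to 87.3), while the BK pore gene Kcnma1 was at 34.9 CPM, held without leading. Other leading members were Kcnh8, Kcnj16, Kcnip1, Kcnh5, Kcnb2, Kcnt2, Kcnj3 and the noncoding Kcnmb4os2, between 10.2 and 38.5 CPM. Without library 1, Kcnh5 was at 9.27 CPM and Kcnj3 at 6.18 CPM, and neither led. Of the members named here, Kcnb2, Kcnmb4os2, Kcnj16 and Kcnh8 were under 4-fold within library 1, and Kcnk3 within library 3.

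Astrocytes were led by 7 members, beside 3.79% of all genes. Kcnn2, the small-conductance SK2 channel opened by calcium, was at 98.9 CPM (83.5 to 116) in 319 cells, with 95.7, 94.6 and 102 CPM by library, and its relative Kcnn3 (SK3) at 19.1 CPM (12.7 to 27.6). Their means elsewhere were 3.86 and 1.19 CPM. These means hide other holders. Kcnn2 was in 32.9% of astrocytes, but also in 17.1% of neuroblasts and 10.1% of neurons. Kcnn3 was in 6.90% of astrocytes and 13.1% of neurons. Kcne1l, an auxiliary subunit also named Kcne5, was at 63.4 CPM (51.2 to 77.7), Kcna2 at 60.7 CPM (48.8 to 74.7) and Kcnk2 at 57.3 CPM (45.7 to 71.0). Kcnk2 was at 11.04 CPM in library 1 against 60.5 and 71.3 CPM in libraries 2 and 3. Its CPM plus 1 was 4.06 times the mean of the other classes in the pooled cells and under 4 times within each library. Kcnt1 (Slack), opened by sodium, was at 39.6 CPM (30.05 to 51.2), and Kcnj16 (Kir5.1), which joins Kir4.1 in potassium uptake by astrocytes, at 26.6 CPM (18.9 to 36.4). Both ran the other way across libraries. Kcnt1 was at 95.7, 44.7 and 18.4 CPM and Kcnj16 at 62.6, 34.2 and 11.1 CPM in libraries 1, 2 and 3, and without library 3 they stood at 65.9 and 46.0 CPM. Kcnj16 was under 4-fold within library 3, and at 17.3 CPM with a mitochondrial limit of 10%.

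The astrocyte gate held at least 2 kinds of cell, which also differed in share between libraries. Cells with 2 or more UMIs of Agt, angiotensinogen, numbered 125 (48, 45 and 32 by library) and cells with none 161 (12, 46 and 103). The second set held Sox11, a gene of immature neural cells, at 447 CPM against 9.64 CPM in the first, and Sox2 at 495 against 308 CPM. In Agt-positive cells Kcnt1 was at 108 CPM (79.1 to 145) against 10.2 CPM (4.68 to 19.4) in Agt-negative cells. Kcnj16 was at 67.4 CPM (44.8 to 97.5) against 10.2 CPM (4.68 to 19.4). Kcnd2 was at 57.8 CPM (37.0 to 86.0) against 1.14 CPM (0.0288 to 6.34), the latter from 1 UMI. All 3 were higher by 2-fold or more, of 15 members with 20 UMIs, beside 7.73% of all genes. The direction was the same within libraries 2 and 3, where Kcnt1 was at 122 against 13.2 CPM and at 58.4 against 9.07 CPM. Kcnk2 (33.7 against 71.6 CPM), Kcnk10 (4.82 against 27.3 CPM) and Kcnh7 (2.41 against 23.9 CPM) were lower in Agt-positive cells, beside 18.1% of all genes. Their median depth was 2448 UMIs against 4058. Neuroblasts also held Kcnk2 (43.7 CPM), Kcnk10 (21.8 CPM) and Kcnh7 (18.7 CPM). Whether the Sox11-bearing cells account for these differences was not tested.

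Microglia held leak channels. Kcnk13 (THIK-1), the channel known to set their resting potential and the surveillance by their processes, was at 32.6 CPM (31.4 to 33.9) in 9325 cells, with 28.5, 30.9 and 47.8 CPM by library. It was found in 24.7% of the cells, and did not lead, since mature oligodendrocytes held more. T cells stood at 1.30, 2.66 and 17.99 CPM by library, the last from 2 UMIs in 23 cells. The part of oligodendrocyte RNA in the microglial level was not tested. Kcnk6 (TWIK-2), a channel of lysosomal and surface membranes tied to inflammasome activation in macrophages, led microglia at 22.7 CPM (21.7 to 23.7), beside 1.97% of all genes. By library it was at 23.3, 17.6 and 40.3 CPM, against a mean of 2.87 CPM elsewhere. The inward rectifier Kcnj2 (Kir2.1) was held at 14.8 CPM, with 15.7, 16.5 and 6.45 CPM by library. Kcnk12 (THIK-2) at 8.59 CPM and Kcnd1 (Kv4.1) at 6.14 CPM were held as well and were highest in library 3, at 26.3 and 16.6 CPM. Neurons, which Kcnk12 led, held it at 16.02 CPM (9.92 to 24.5). That lead rested on library 1, at 22.7 CPM from 20 UMIs, while the 29 neurons of library 2 had 0 UMIs. Kcna3 (Kv1.3), often named in activated microglia, was in 2.01% of the cells at 2.34 CPM, and Kcnn4 was at 4.03 CPM.

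Border macrophages, which line vessels and meninges, were led by the same Kcnk6, at 20.7 CPM (12.8 to 31.7) from 21 UMIs in 155 cells, beside 2.11% of all genes. Within library 3, which held most of these cells, Kcnk6 did not reach 4-fold over the mean of the other classes, microglia among them. Kcnk13 was at 19.7 CPM (12.05 to 30.5), and this interval lay below that of microglia. Border macrophages held a mean of 3.14 microglia marker UMIs and 4.23 oligodendrocyte marker UMIs. The part of these in the values was not tested.

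Microglia with Cst7, a gene of the response to injury and disease, were set against those with none. Of 28 members with 20 UMIs, 0 were higher by 2-fold in the 4255 Cst7-positive cells and 7 were lower, beside 2.88% and 15.1% of all genes. Kcnk12 differed most, at 1.89 CPM (1.54 to 2.28) against 22.3 CPM (20.5 to 24.2), followed by Kcnip3 (1.35 against 10.5 CPM) and Kcnd1 (2.38 against 13.6 CPM). Kcnk6 was at 15.8 against 36.9 CPM. The 2 sets differed in library, with 8 Cst7-positive and 1760 Cst7-negative cells in library 3, so values were also taken within libraries 1 and 2. Kcnk12 was then at 2.24 against 20.3 CPM and at 1.66 against 16.7 CPM, and Kcnk6 at 17.9 against 37.0 CPM and at 14.7 against 30.8 CPM. Kcnd1 was at 2.67 against 13.3 CPM and at 2.25 against 9.21 CPM. Kcnj9, Kcna1 and Kcnq1ot1 were the other 3 members, and Kcnq1ot1, at 33.1 against 52.0 CPM, was lower by less than 2-fold in library 1. Cst7-positive cells were deeper, with a median of 12309 UMIs against 5657. They held a mean of 1.17 oligodendrocyte marker UMIs against 2.74, and Kcna1 in microglia served above as a measure of free RNA. The part of depth and of oligodendrocyte RNA in these differences was not tested.

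T cells were led by 3 members, beside 1.86% of all genes. Kcnn4 encodes KCa3.1, the calcium-activated channel that keeps the calcium signal of activated lymphocytes going. It was at 52.7 CPM (49.0 to 56.6) in 2516 cells, with 65.7, 42.2 and 72.0 CPM by library, against a mean of 3.26 CPM elsewhere. Kcnab2, a cytosolic beta subunit of Kv1 channels, was at 19.4 CPM (17.2 to 21.8), and the leak channel Kcnk5 (TASK-2) at 14.4 CPM (12.5 to 16.5). The Kv1 pore gene best known from T cells, Kcna3, was in 1.31% of the cells at 2.47 CPM (1.72 to 3.43), close to microglia (2.34 CPM). CD8 cells (1345) and CD4 cells (234) did not differ by 2-fold in any of 7 members with 20 UMIs, beside 4.37% of all genes higher and 2.89% lower in CD8 cells. Kcnn4 was at 49.4 CPM (44.7 to 54.4) and 66.1 CPM (53.7 to 80.6), Kcnab2 at 16.6 and 31.7 CPM, and Kcnk5 at 14.6 and 9.44 CPM, in that order.

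NK cells were led by Kcnab2, at 21.9 CPM (15.1 to 30.5) in 238 cells, and Kcnk5, at 10.9 CPM (6.37 to 17.5), beside 1.58% of all genes. Kcnab2 stood at 10.8 CPM without library 1, where it no longer led. They held Kcnn4 at 16.7 CPM (10.9 to 24.5), below T cells by more than the intervals, and Kcnip3 at 27.0 CPM (19.5 to 36.5). Kcnq5 was found in 9 UMIs, 5.79 CPM, in NK cells, of 35 UMIs over the classes, so it was not called. Neutrophils were led by Kcnj2 alone, at 30.1 CPM (20.4 to 42.7) from 31 UMIs in 239 cells, beside 3.83% of all genes. It was at 37.1, 16.2 and 11.1 CPM by library, and without library 1 at 13.2 CPM and no longer leading. No other member was in 5% of neutrophils, whose median depth was 3451 UMIs.

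Mural cells, which wrap vessels, shared part of their genes. Smooth muscle cells (92, of which 22 were in library 2 and 69 in library 3) were led by 8 members, beside 3.24% of all genes, and pericytes (182) by 3, beside 2.6%. Kcnmb1 encodes the beta subunit that makes the BK channel of smooth muscle more sensitive to calcium. It was at 84.6 CPM (64.9 to 109) in smooth muscle cells and 53.3 CPM (39.6 to 70.3) in pericytes. The pore gene Kcnma1 was at 42.3 CPM (28.8 to 60.1) in smooth muscle cells and had 0 UMIs in pericytes, which allows up to 3.20 CPM. So pericytes held the beta subunit with no detectable pore gene at this depth. Kcne4, a single-span subunit that damps Kv channels, was at 75.1 CPM (56.6 to 97.7) and 71.5 CPM (55.4 to 90.8). Kcnj12 (Kir2.2) was at 43.7 CPM (29.9 to 61.7) and 30.9 CPM (20.7 to 44.4). For Kcne4, Kcnj12 and Kcnmb1 the intervals of the pair overlapped.

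Smooth muscle cells also held a Kv1 pore with its partner and a leak channel. Kcna5 (Kv1.5) was at 77.8 CPM (58.9 to 100.8), with 66.0 and 82.4 CPM in libraries 2 and 3, against a mean of 1.02 CPM elsewhere and 7.47 CPM in pericytes. Kcnab1, the beta subunit that can inactivate Kv1 channels, was at 94.2 CPM (73.3 to 119) in smooth muscle cells and 5.33 CPM in pericytes. The leak channel Kcnk3 (TASK-1) was at 86.0 CPM (66.1 to 110.05) and 35.2 CPM (24.2 to 49.4). Between libraries 2 and 3 the smooth muscle values were close for Kcnj12 (42.0 and 44.8 CPM) and apart for Kcne4 (18.01 and 93.1 CPM). Smooth muscle cells held a mean of 6.42 oligodendrocyte marker UMIs, and pericytes 7.14, and the part of these in the values was not tested.

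Endothelial cells, 1042 in all, held few channel genes. Kcnq1 led them at 6.67 CPM (5.14 to 8.52) in 5.76% of the cells, beside 3.77% of all genes, and did not reach 4-fold within library 3. It overlaps the noncoding Kcnq1ot1, which runs on the opposite strand between 143203458 and 143296549 on chromosome 7, inside Kcnq1. Kcnq1ot1 was at 71.2 CPM in these cells, below the mean of the other classes (109.5 CPM). Kcna1, at 6.88 CPM in 5.57% of endothelial cells, was no higher than the 9.60 CPM of pericytes, and these cells held a mean of 12.2 UMIs of oligodendrocyte markers. Arterial cells (161, with UMIs of at least 2 of Bmx, Gkn3, Sema3g and Efnb2) held Kcnj2 at 9.98 CPM (6.18 to 15.3) against 2.69 CPM (1.47 to 4.52) in 660 other cells, and Kcnk6 at 6.65 CPM (3.64 to 11.2) against 2.12 CPM (1.06 to 3.79). Kir2.1 is the channel by which capillary and arterial endothelium is known to sense potassium. These 2 of 10 members were higher, beside 3.28% of all genes, on 21 and 14 UMIs. Kcnk7 was lower on 3 UMIs, at 1.43 against 4.23 CPM, beside 1.72%. Arterial cells had a median of 10366 UMIs and 19.0 oligodendrocyte marker UMIs, against 5350.5 and 10.4, and the part of these in the difference was not tested.

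**Figure D4:**
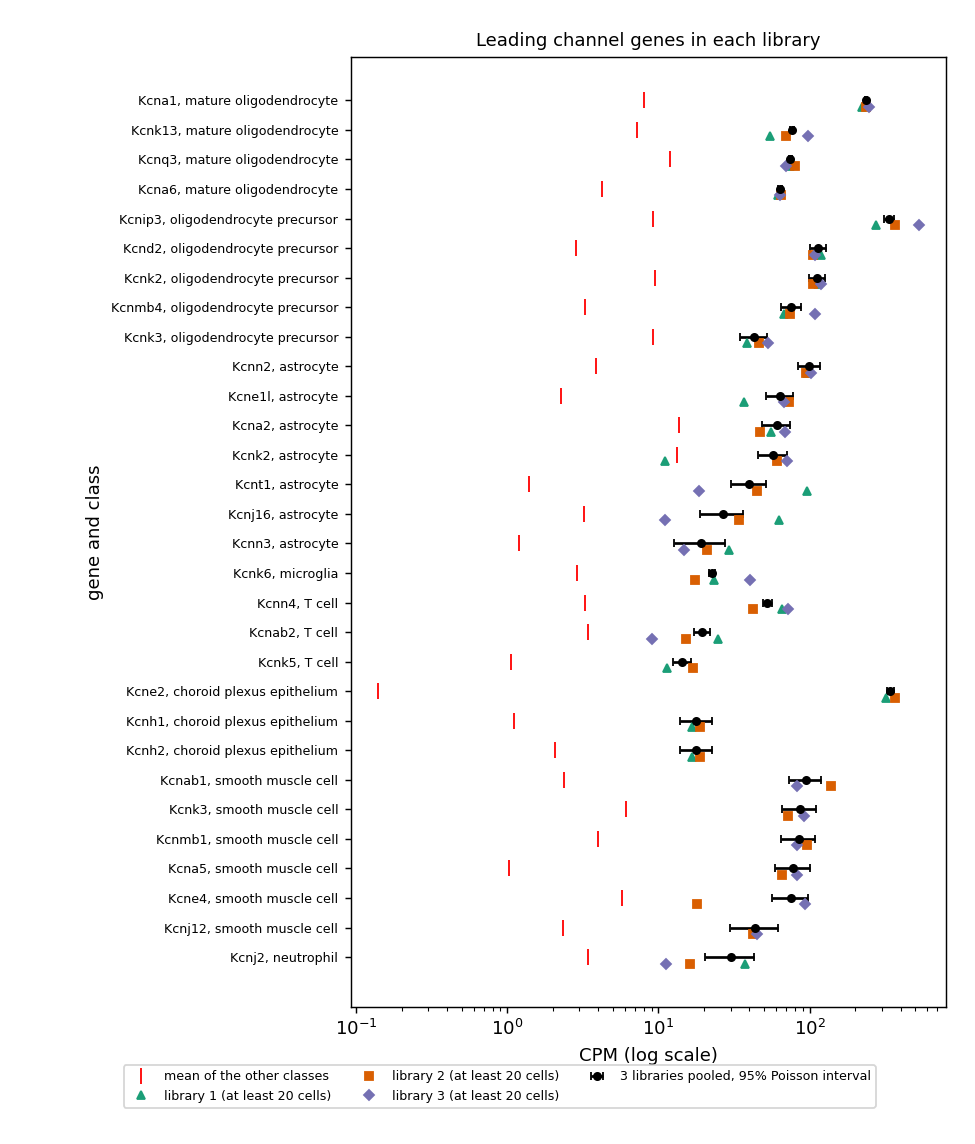
CPM (log axis) of selected leading potassium channel genes in their class, with the pooled value and exact Poisson 95% interval in black, single libraries with at least 20 cells in colour, and the mean of the other classes as a red bar. Values of 0 are not drawn. Kcna1 in mature oligodendrocytes stands at 221 to 249 CPM in the 3 libraries, while Kcnj16 in astrocytes spans 11.1 to 62.6 CPM.

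Choroid plexus epithelium, which makes cerebrospinal fluid, held 1 member at high level. Kcne2, a single-span subunit known at its apical membrane, was at 343 CPM (325 to 362) and in 89.7% of 233 cells, with 319 and 365 CPM in libraries 1 and 2. The mean of the other classes was 0.139 CPM. It gave 84.1% of the channel UMIs of the class, counted without the genes left out by the rule. Kcnh1 and Kcnh2, of the ether-a-go-go family, led it as well, both at 17.8 CPM (13.8 to 22.5), beside 2.89% of all genes. Transthyretin (Ttr) made up 342537 CPM of this class, which lowers the share left to every other gene. Kcnq1, a pore that Kcne2 can bind, had 0 UMIs in the class, which allows up to 0.773 CPM.

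Among mature oligodendrocytes, 1349 held 2 or more UMIs of Klk6, a protease gene of a subset found in caudal white matter, and 7303 held none. Kcna2 was at 12.6 CPM (10.8 to 14.5) in the first and 44.1 CPM (42.3 to 45.9) in the second. It was lower in each library, at 5.57 against 32.2 CPM, 11.2 against 29.05 CPM and 19.8 against 65.4 CPM. Kcna2 was the only 1 of 37 members lower by 2-fold, beside 1.79% of all genes. Kcnq1ot1 was higher, at 104 CPM (98.9 to 109) against 44.6 CPM (42.8 to 46.5), and higher in every library, and so was Kcnmb4 at 2.16 against 0.538 CPM from 32 and 28 UMIs, beside 2.46% of all genes. Median depth was 10100 and 6260 UMIs. Kcna1, Kcna6 and Kcnk13 did not differ by 2-fold.

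Dividing cells, with UMIs of at least 2 of Mki67, Top2a, Birc5 and Cenpf, were set against cells with none of these. Among 156 dividing microglia, Kcne1l was at 10.3 CPM (7.01 to 14.6) against 0.0774 CPM (0.0284 to 0.168) in 8617 others, in 7.69% and 0.0696% of the cells. Kcnk10 and Kcnn2, on 8 UMIs each, were higher too, both at 2.66 CPM (1.15 to 5.24) against 0.155 CPM (0.0799 to 0.2702), and in all 4 of 29 members were higher, beside 9.05% of all genes. Kcnk6 was lower, at 8.98 CPM (5.92 to 13.1) against 23.5 CPM (22.5 to 24.6), beside 2.96% of all genes. Dividing microglia held a mean of 1.09 neuroblast marker UMIs against 0.0760, Sox11 at 85.5 against 3.66 CPM, and a median of 17967.5 against 7574 UMIs, and the part of these in the differences was not tested. Among neuroblasts, 364 dividing cells also held more Kcne1l than 1463 others, at 45.4 CPM (39.2 to 52.1) against 7.20 CPM (5.35 to 9.50), the only 1 of 36 members that was higher, beside 8.08% of all genes, while 16 were lower, beside 12.2%. Dividing T cells (176) had 0 of 10 members higher, beside 10.3% of all genes. They had 2 lower, Kcna1 and Kcnk6, which had 0 UMIs there, beside 6.45%. Over all T cells these were at only 1.97 and 2.12 CPM, and Kcna1 served above as a measure of free RNA. Median depth was 11343.5 against 4440 UMIs in dividing and other neuroblasts, and 10534 against 4637.5 UMIs in T cells. The part of depth and of free RNA in these differences was not tested.

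**Figure D5:**
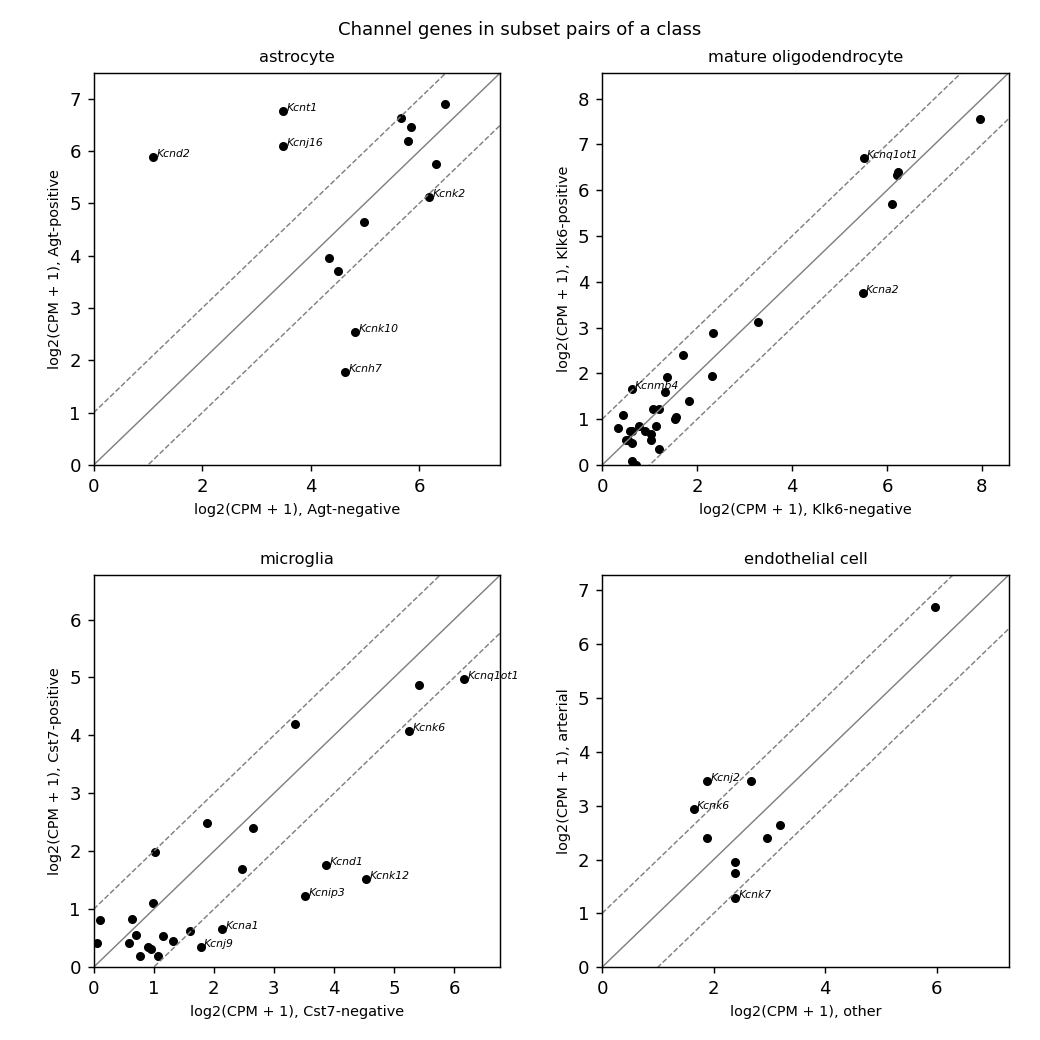
Level of potassium channel genes with at least 20 UMIs as log2(CPM + 1) in paired subsets of astrocytes, mature oligodendrocytes, microglia and endothelial cells. The solid line marks equal levels and the dashed lines a 2-fold difference, and genes beyond them by the plus-1 scale are named, such as Kcnt1 at 108 against 10.2 CPM in Agt-positive and Agt-negative astrocytes.

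Kcnq1ot1, an imprinted noncoding RNA that silences genes around Kcnq1, was counted apart from the channels. It was highest in neurons (344 CPM, 313 to 377), newly formed oligodendrocytes (275 CPM, 240 to 313), precursors (259 CPM, 239 to 281) and neuroblasts (212 CPM, 204 to 221), and lay between 9.70 and 74.7 CPM in the other 11 classes. The neuron and newly formed oligodendrocyte intervals touched, as did those of newly formed cells and precursors.

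For contrast, neurons (99) were led by 13 members, beside 6.05% of all genes, with Kcnma1 (117 CPM), Kcnh8 (93.8 CPM) and Kcnc1 (71.0 CPM) at the top, and the 5 members held only by neurons or neuroblasts were Kcnc2, Kcng2, Kcnh7, Kcnj9 and Kcnmb2. Of these, Kcnh7 missed the rule in astrocytes only by its share of cells. It was there at 15.7 CPM (9.95 to 23.5) from 23 UMIs in 4.39% of the cells, against 9.92 CPM in neurons. Kcnj9, a G-protein-gated rectifier, was at 24.4 CPM in neurons and at most 2.21 CPM elsewhere. Neuroblasts (1966) were led by Kcnc1 (47.6 CPM), Kcnk10, Kcnh7 and Kcnmb4os2, beside 3.88%. Kcnk2 was held by precursors, astrocytes, neuroblasts and neurons, and Kcna2 by cells of the oligodendrocyte lineage, astrocytes and neurons. Kcne3, an auxiliary subunit that was on the list of genes to name, gave 4 UMIs in all.

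The channels work beside pumps, cotransporters, partner subunits and other cation channels. Of 26 such genes, 22 had 50 UMIs, and 12 led a non-neuronal class, beside 31.6% of all genes. The pump subunit Atp1b2 was at 829 CPM (783 to 877) in astrocytes and 447 CPM (405 to 492) in pericytes. In mature oligodendrocytes the pump subunit Atp1b3 (559 CPM), the sodium-potassium-chloride cotransporter Slc12a2 (462 CPM) and Hcn2 (254 CPM, 250.1 to 257), a cation channel opened by hyperpolarisation, led beside the Kv1 genes. Abcc9, the sulfonylurea receptor of vascular ATP-sensitive channels, was at 588 CPM (539.7 to 639) in pericytes and 4.10 CPM in smooth muscle cells. Slc12a7 led endothelial cells at 30.8 CPM, Amigo1, a partner of Kv channels, led astrocytes at 18.4 CPM, and the intracellular channels Tmem38a and Tmem38b led choroid plexus epithelium (46.6 CPM) and smooth muscle cells (154 CPM).

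Within single libraries, with only the classes that had at least 50 cells there, 47 of 55 leads held at 4-fold in library 1, 35 of 41 in library 2 and 39 of 46 in library 3. Kcnk2 in astrocytes was under 4-fold in all 3, and Kcna2 in astrocytes and Kcnk10 in neuroblasts in libraries 2 and 3. Those under it in a single library included Kcnc1 (library 1) and Kcnh7 (library 2) in neuroblasts, and Kcnab2 and Kcnk5 in NK cells (library 2).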

How the data were processed

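Single-cell RNA-seq libraries of 3 conditions were made with a 3′ droplet kit. The authors mapped reads to mm10 with Cell Ranger 3.1.0 and STAR, down-sampled them across libraries and deposited 1 matrix of raw UMI counts, not normalized (tools per the labels; the study also used Seurat 3.1.1). Library totals were 69270514 to 105957232 UMIs. Cells with at least 1000 UMIs and at most 30% mitochondrial UMIs were kept. A cell entered a class when at least 3 of its markers were found, their sum was at least 5 UMIs (30 for mature oligodendrocytes) and at least 2 times that of every other class, or simply larger for the pairs pericyte and smooth muscle cell, precursor and newly formed oligodendrocyte, and newly formed and mature oligodendrocyte. The thresholds were set after the counts were seen, and the members and lists were chosen with earlier results of these data known. No doublet caller was run, and 696 of 2490 cells that met the marker minimums of more than 1 class were left out by the gate. Classes of fewer than 50 cells (monocyte or dendritic, B, ependymal cells and fibroblasts) were not described.

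Counts were summed per class and given as CPM with exact Poisson 95% intervals, and shares as percent of cells; intervals cover counting error only. A count of 0 allows up to 3 counts. With 1 library per condition and no map from barcode number to condition there was no test and no p-value. Named genes were the leading members and the 3 highest members in 5% of each class, the 5 members with most UMIs, and a list of members with a known place in a cell type. Other members named, such as those held without leading or apart between subsets, were chosen after their values were seen. A few genes counted in the totals are not reported here by name or in the figures. Subsets of a class needed 2 UMIs (or 2 markers, and 1 Cd4 UMI for CD4 cells) against none, and 2-fold of CPM plus 1. The 3 library columns, the thresholds of fold, share and depth, the gate and thinning to 1000 UMIs were varied. Gate and calls were run on cells simulated from the summed counts of these same classes, with some genes raised by a known fold. Mixed cells were not simulated, so their effect was not tested. Coding sequences were read from GENCODE M21 by gene identifier, longest coding transcript. How far overlapping genes, mostly antisense, were kept apart by strand was not tested, since no strand setting was stated. Kcnq1ot1 and Kcnq1 had separate counts, with 451 and 0 UMIs in neurons and 99 and 0 UMIs in astrocytes. Python 3.11.15, NumPy 2.4.6, pandas 2.3.3, SciPy 1.17.1 and Matplotlib 3.10.9 were used.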

Additional observations from a re-analysis of the deposited data

How the results depend on the processing

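Leading calls of members numbered 70. They numbered 111 with a fold of 2, 33 with a fold of 8 and 21 after thinning each cell to 1000 UMIs. Of these, 70, 33 and 19 were among the reported ones. The overlaps at folds of 2 and 8 were fixed in advance, since only the fold was changed there. Members held by a non-neuronal class numbered 48, and 15 after thinning, all among the 48. Thinning leaves fewer cells with a UMI, so the 5% minimum is met less often. With the fold taken over all other cells pooled, 103 calls were made, 65 of them among the 70. Every other alternative stayed within 1.5 times: 57 to 73 leads and 37 to 52 held members with other limits on depth, mitochondrial share, share of cells and marker gate, and with shared barcodes left out (chosen after seeing the data, as was a gate at 5 times the other marker sums). Without library 1, 2 or 3 there were 51, 60 and 48 leads, of which 46, 58 and 45 were reported ones, while 55, 68 and 57 of the 70 reported leads were in classes that still had 50 cells. Single levels moved out of their interval in 13, 7 and 8 of those, and in 31 of 70 leads after thinning, by ratios of 0 to 2.65. After thinning Kcnt1 and Kcna2 in astrocytes stood at 81.5 and 109.7 CPM, and Kcna5 in smooth muscle cells at 130.4 CPM. Thinned values were 14.1 CPM for Kcnd3 in precursors, 8.58 CPM for Kcnh1 in choroid plexus epithelium and 4.20 CPM for Kcnk5 in NK cells. Kcnk6 in border macrophages and Kcnk12 in neurons stood at 0 after thinning. No paired analysis was possible because each condition has 1 library and the columns carry no replicate numbers. Members with under 50 UMIs, 35 of 95, could not be called at this depth.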

Other observations

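Members below 50 UMIs were still uneven. Kcnip4, which binds Kv4 channels, had 28 of its 33 UMIs in neurons, and Kcns3, a silent Kv subunit, 11 of its 23 in smooth muscle cells (15.02 CPM). These 2 were chosen after their values were seen.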
